A study of Mus musculus with 2 samples.

Results

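Some *Foxp3*+ regulatory T cells (Tregs) in the inflamed islets of NOD mice carry transcripts of recent activation and few of a suppressive program. These cells were taken from 2 single-cell libraries by their raw UMI counts (a UMI is a molecular tag that stands for 1 captured transcript). A cell was first called a Treg if it had no *Cd8a* or *Cd8b1* UMI, at least 1 UMI of *Cd4*, *Foxp3*, *Il2ra* or *Ikzf2*, and at least 3 of *Cd3d*, *Cd3e* and *Cd3g* together. A Treg was gated if *Xcl1*, *Cd83*, *Nrn1* and *Tbc1d4* together had at least 3 UMIs, while *Lag3*, *Itgae*, *Il10* and *Cxcr6* (the suppressive genes) and *Mki67*, *Top2a*, *Birc5*, *Ube2c* and *Cdk1* (the proliferation genes) each had fewer than 3 in sum. The rule held 244 of 2915 Tregs, out of 5629 cells in all, 128 of them wild type and 116 knockout. Because the cells were chosen by their measured UMIs of these genes, their difference from other Tregs is a description, and the genes of the rule are left out of every count. The wild-type library came from NOD.Foxp3-EGFP mice, an autoimmune diabetes strain in which GFP marks *Foxp3*+ cells. The knockout library came from NOD.Tnfrsf9-/-.Foxp3-EGFP mice, which carry the same reporter and lack CD137, the receptor that *Tnfrsf9* encodes, in all cells and not only in Tregs. Each library was made from the islets of 6 females of 9 to 10 weeks, pooled, with CD8 T cells and GFP+ Tregs sorted together. The knockout Tregs therefore came from islets whose CD8 T cells lacked CD137 as well.

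A Treg that meets its antigen through the T cell receptor (TCR) induces, within hours, transcription factors of the NR4A, NF-κB and AP-1 families and surface molecules such as CD83, OX40 and CD137. T follicular regulatory (Tfr) cells are Tregs that take up the program of follicular helper (Tfh) cells, with the repressor BCL6, the B cell follicle receptor CXCR5, PD-1 and the stem-like factor TCF1, which *Tcf7* encodes. BLIMP1, the product of *Prdm1*, opposes BCL6 and marks effector Tregs. Of the gate's own genes, *Xcl1* encodes a chemokine that attracts cross-presenting dendritic cells, *Cd83* a surface protein of activated lymphocytes, *Nrn1* the small membrane protein neuritin found in Tfr and anergic T cells, and *Tbc1d4* a Rab GTPase-activating protein.

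The gated cells summed to 823906 UMIs (wild type) and 799951 UMIs (knockout). Their median depth was 5448 and 5921 UMIs, and that of the other Tregs 4278 and 4254. With 1 pooled library per genotype every interval given is a 95% interval for counting error and not for the spread between mice, and no difference was tested across mice. Intervals for levels and ratios treat the summed UMIs as independent, so they leave out the spread between cells as well. Where few cells hold many UMIs they are too narrow. *Tnfrsf9* (ENSMUSG00000028965) had 346 UMIs in wild-type gated cells, 419.95 CPM (377 to 467), and 121 in knockout ones, 151 CPM (126 to 181), which made a log2 ratio of knockout over wild type of −1.47 (−1.78 to −1.17). The transcript was thus lower in the library labelled knockout but was present in 54 of 116 cells (46.6%, against 58.6% in the wild type). At 2000 UMIs per cell these shares were 26.1% and 39.1%, and in CD8 T cells 1.94% and 6.85%. Which part of the gene this global allele lacks is not given in the sources used here, and a tag read from the 3′ end outside the deleted part would not check the label. Of the barcodes, 16 occurred in both libraries, 3 of them in wild-type gated cells and 0 in knockout ones. Gated cells above 3 times the median UMIs of their library's Tregs numbered 7 and 8, and doublets were not removed. Markers of other lineages were rare in the gate. At least 2 myeloid markers occurred together in 2 cells of each library, endothelial or stromal ones in 1 wild-type cell and acinar ones in 1 knockout cell, while *Lyz2*, *Csf1r* and *Cd14* were at 0 in both libraries. Summed, the 7 myeloid markers stood at 174 and 151 CPM in gated cells against 318 and 265 CPM in the other Tregs, and the 5 endothelial or stromal markers at 103 and 83.8 against 64.0 and 94.8 CPM. B cell, acinar, endocrine and erythroid markers summed to between 0 and 16.3 CPM. Only *Eomes* among the 4 NK markers had UMIs, and their sum was 23.1 CPM in wild-type and 2.50 CPM in knockout gated cells, against 5.12 and 5.23 CPM in the other Tregs. Mitochondrial UMIs made up a median of 2.09% in wild-type and 1.78% in knockout gated cells, against 1.59% and 1.51% in the other Tregs. The part of these markers and of the mitochondrial share in the results below was not tested.

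The gate was met mostly through *Cd83* and *Tbc1d4*. Among wild-type gated cells, 90 of 128 had a *Cd83* UMI, 98 a *Tbc1d4* UMI, 38 an *Nrn1* UMI and 13 an *Xcl1* UMI. Among knockout gated cells these were 78, 106, 26 and 6 of 116. *Cd83* and *Tbc1d4* occurred together in 64 wild-type cells (50%, exact binomial interval 41.04 to 58.96%) and 69 knockout cells (59.5%, 49.97 to 68.5%), and all 4 genes in 3 and 1. The gate sum had a median of 4 UMIs (wild type) and 5 UMIs (knockout), with exactly 3 in 40 and 38 cells and 10 or more in 10 and 19. A single wild-type cell held 37 of the 67 *Xcl1* UMIs, and 1 knockout cell 29 of 41. *Cd83* stood at 312 and 276 CPM in the gate and at 4.85 and 3.93 CPM in CD8 T cells of the same libraries, whereas *Xcl1* was higher in those CD8 T cells (400.4 and 281 CPM) than in the gate (81.3 and 51.3 CPM). Treg identity rested chiefly on *Ikzf2* (Helios), found in 126 of 128 and 115 of 116 gated cells. *Il2ra*, also of the rule, was at 71.6 CPM (54.5 to 92.4) in wild-type and 176 CPM (148 to 208) in knockout gated cells. The other Tregs held 153 and 187 CPM of it. An *Il2ra* UMI occurred in 23.4% and 40.5% of gated cells and in 38.7% and 43.1% of the other Tregs. *Cd4* was at 193 and 160 CPM in the gate against 196 and 188 CPM. *Foxp3* itself, sparsely captured here, had a UMI in 12 wild-type (9.38%) and 20 knockout (17.2%) gated cells, against 13.6% and 20.1% of the other Tregs. At 2000 UMIs per cell these shares were 2.34% and 4.35% in the gate, and 6.83% and 9.43% outside it. CD8 T cells were defined as lacking *Foxp3* UMIs and give no background for it.

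The gated share of Tregs was 8.45% (128 of 1514, exact binomial interval 7.10 to 9.97%) in the wild-type library and 8.28% (116 of 1401, 6.89 to 9.85%) in the knockout library. The difference of −0.175 percentage points had a Newcombe interval of −2.19 to 1.85 and was within counting error. Since 3 UMIs are met more easily in deep cells, all retained cells, CD8 T cells included, were also thinned to 2000 UMIs. This left out 128 wild-type and 94 knockout cells of any type that were shallower. The Treg rule and the gate were then applied again. The shares were then 3.62% (52 of 1436) and 3.73% (47 of 1261), 0.106 points apart (−1.32 to 1.57). Suppressive Tregs, with at least 3 UMIs of the suppressive genes and fewer than 3 of the proliferation genes, accounted for 42.1% (wild type) and 30.4% (knockout) of Tregs, and proliferating ones 10.04% and 11.99%. The remaining Tregs, below all 3 limits, made up 39.4% and 49.3%. They met the same exclusions as the gated cells and are used below as a second reference, chosen after the values were seen. Their median depth, 3277 and 3462 UMIs, was lower than that of the gate, which cannot be told apart from the rule's demand for 3 UMIs.

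**Figure D1:**
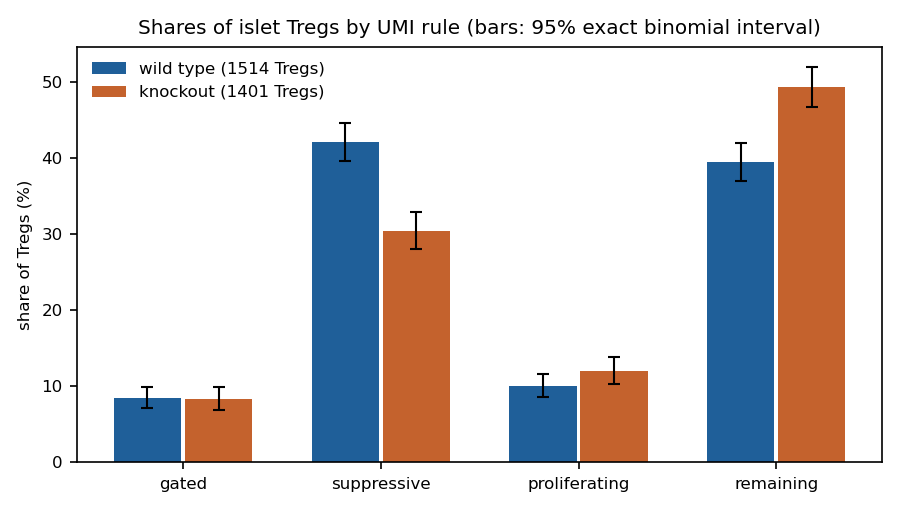
Share of Tregs (vertical axis, %) in each group set by UMI counts (horizontal axis), wild type in blue and knockout in orange, with 95% exact binomial intervals as error bars. The gated share is 8.45% and 8.28% in the 2 libraries, with overlapping intervals.

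On either side of the limit, among cells that met the exclusions, 69 wild-type and 72 knockout Tregs had 2 UMIs of the gate genes, and 40 and 38 had 3. *Tcf7* stood at 146 CPM in the wild-type cells with 2 and 158 CPM in those with 3, and at 117 and 212 CPM in the knockout. *Bhlhe40* stood at 62.7 and 83.7 CPM in the same wild-type cells and at 52.5 and 101 CPM in the knockout ones. *Tnfsf8*, the CD30 ligand gene, went from 185 to 126 CPM in the wild type and from 58.7 to 106 CPM in the knockout. *Tnfsf11*, the RANKL gene, went from 35.8 to 13.96 and from 37.05 to 70.6 CPM. Both had opposite directions in the libraries, but with intervals that overlapped, and *Tnfsf11* rested on 12 and 3 wild-type and 12 and 14 knockout UMIs. *S1pr1*, the receptor that guides T cells out of tissue, was at 62.7 and 65.1 CPM in the wild type and went from 129.7 to 80.7 CPM in the knockout. *S100a6* was lower with 3 than with 2 in both, at 209 against 612 CPM and 348 against 667 CPM, and *Nr4a2* was at 65.7 and 97.7 CPM and, in the knockout, 61.7 and 50.4 CPM. Among these genes, only the intervals of *S100a6* did not overlap between cells with 2 and with 3, in either library. Cells with 1 gate UMI already held *Tcf7* at 156 (wild type) and 117 CPM (knockout), and *Tnfsf8* at 200 and 138 CPM. In cells with no gate UMI *Tcf7* was at 89.2 and 87.0 CPM and *Tnfsf8* at 81.9 and 62.6 CPM. *Bhlhe40*, by contrast, was at 43.8 and 22.3 CPM in cells with 1.

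Of 6043 genes with a mean of at least 20 CPM, 111 (1.84%) were higher in the gate than in all other Tregs and 309 (5.11%) were lower. A gene was called here when its CPM differed by more than 1.5-fold with an interval that left out no change, in the same direction in both libraries. Against the remaining Tregs, 131 of 6021 genes (2.18%) were higher and 305 (5.07%) lower. Of the 111 genes higher than in all other Tregs, 40 (36.04%) were also among those 131 (30.5% of them). The rest of the 111 were called only against the reference that holds suppressive and proliferating cells, which the rule removed from the gate. Against the suppressive Tregs alone, 164 of 6005 genes (2.73%) were higher and 365 (6.08%) lower.

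*Tcf7* was the marker of the label that the rule did not use. It had 128 UMIs in 64 of 128 wild-type gated cells, 155 CPM (129.6 to 185), and 124 UMIs in 61 of 116 knockout gated cells, 155 CPM (129 to 185). The other Tregs stood at 56.6 and 54.4 CPM, which gave log2 ratios of 1.46 (1.16 to 1.74) and 1.51 (1.21 to 1.81). Both libraries were alike in level inside and outside the gate. A *Tcf7* UMI was seen in 50% and 52.6% of gated cells, 18.8% and 19.7% of the other Tregs, and 39.5% and 49.5% of the CD8 T cells, with median depths of 5448 and 5921, 4278 and 4254, and 5538 and 5089 UMIs. At 2000 UMIs per cell, the shares were 25.8% and 27.0%, 9.38% and 9.83%, and 18.5% and 27.2%. Most of this contrast was with the suppressive Tregs (30.2 and 25.3 CPM). The remaining Tregs held 111 and 98.1 CPM, and the ratio to them, 0.48 (0.16 to 0.79) and 0.66 (0.34 to 0.97), was not past 1.5-fold in the wild type. The gene lies at chr11:52252371-52283014 of GRCm38 on the minus strand, where *A630014C17Rik* overlaps it on the other strand (chr11:52276055-52286179), and whether the counting used strand is not given in the sources used here. Its promoter is printed as a description, and whether NR4A factors act on it was not tested. Within 250 bases before to 50 after the start in RefSeq, GRCm38.p6, it holds the NR4A binding letters AAAGGTCA, read on the opposite strand. *Fhit*, another of the genes higher in the gate, holds them in its own window. Both are printed over 30 bases, 5′ to 3′ on the gene's strand, at chr11:52282590-52282619 and chr14:10453526-10453555, with the match in capitals.
Tcf7: ttccggtgcccTGACCTTTataggagtaaa
Fhit: tatctgtagagAAAGGTCAgaatcctccgc
These letters, searched on both strands, occurred in 1.51% of 32851 RefSeq windows. By gene, with a match in any window, they occurred in 1.19% of 4701 tested genes and 3 of the 80 called-higher genes that had a window (3.75%). For other motifs, shares are given among all windows, tested genes and those 80 genes. They were 7.81%, 5.40% and 7.50% for AP-1 (TGANTCA) and 3.73%, 2.98% and 3.75% for TCF (ATCAAAG). For the cyclic AMP element (TGACGTCA) they were 1.79%, 4.13% and 0 genes, and for EGR (GCGTGGGCG) 0.612%, 1.60% and 1.25%. The NF-κB consensus had 0.411%, 0.383% and 1.25%, and the composite NFAT and AP-1 element 1.45%, 1.36% and 1.25%. Other leading genes held other motifs: *Nebl* that of AP-1, *B3galt1* the composite element and *Fhit* also that of TCF. A match is a run of letters and not a measured binding site.

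The 12 genes highest in the gate by the smaller of their ratios in the 2 libraries were *Nebl*, *Frmd5*, *B3galt1*, *Dscam*, *Tnfsf11*, *Tnfsf8*, *Lmo4*, *Tcf7*, *Mgmt*, *Fhit*, *Bhlhe40* and *Parp8*. *Tnfsf11* encodes RANKL, a ligand by which T cells act on dendritic cells and the stroma. It stood at 61.9 CPM (46.1 to 81.4) in 31 wild-type and 75 CPM (57.2 to 96.5) in 34 knockout gated cells, against 19.1 and 19.96 CPM in the other Tregs and 30.6 and 29.02 CPM in the remaining ones. It was past the limit against both references. *Tnfsf8*, the ligand of CD30, was at 146 CPM (121 to 174) and 128 CPM (104 to 155) against 46.5 and 40.7 CPM in the other Tregs. In the remaining Tregs *Tnfsf8* was at 121 and 80.8 CPM, and in the suppressive ones at 18.05 and 29.9 CPM. Its levels in the gate and in the remaining Tregs were thus within 1.5-fold in the wild type. *Bhlhe40*, a transcriptional repressor induced by TCR signals, was at 101 CPM (80.2 to 125) and 81.3 CPM (62.7 to 104), with log2 ratios of 1.35 (0.98 to 1.70) and 1.52 (1.09 to 1.93) to all other Tregs and 1.49 (1.03 to 1.95) and 1.68 (1.17 to 2.19) to the remaining ones. *B3galt1*, which encodes a galactosyltransferase, had the most UMIs of the rest, 115 and 101, at 139.6 and 126 CPM against 37.4 and 35.6 CPM. *Nebl* had the largest wild-type ratio, 2.49 (1.90 to 3.06), from 41 UMIs in 29 cells, and *Dscam*, a neural adhesion gene, had ratios of 1.69 and 2.18 from 15 and 11 cells. *Mgmt*, for a DNA repair protein, was at 86.2 CPM (67.3 to 109) and 70 CPM (52.9 to 90.9) against 32.8 and 31.2 CPM in the remaining Tregs. *Lmo4*, a LIM domain transcription cofactor, was at 52.2 and 43.8 CPM and *Parp8* at 82.5 and 83.8 CPM, and neither was past the limit against the remaining Tregs. No single cell held more than 23.3% of the gated UMIs of any of these 12 genes. Several of them are very long. Of the called-higher genes, 33.3% spanned over 100 kb, against 14.5% of all genes tested and 12.9% of the called-lower genes, and the sources used here do not say if intronic reads entered the counts. Against the remaining Tregs, *Nebl*, *Frmd5*, *B3galt1*, *Dscam*, *Tnfsf11*, *Mgmt* and *Bhlhe40* were still called, and *Tnfsf8*, *Lmo4*, *Tcf7*, *Fhit* and *Parp8* were not.

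**Figure D2:**
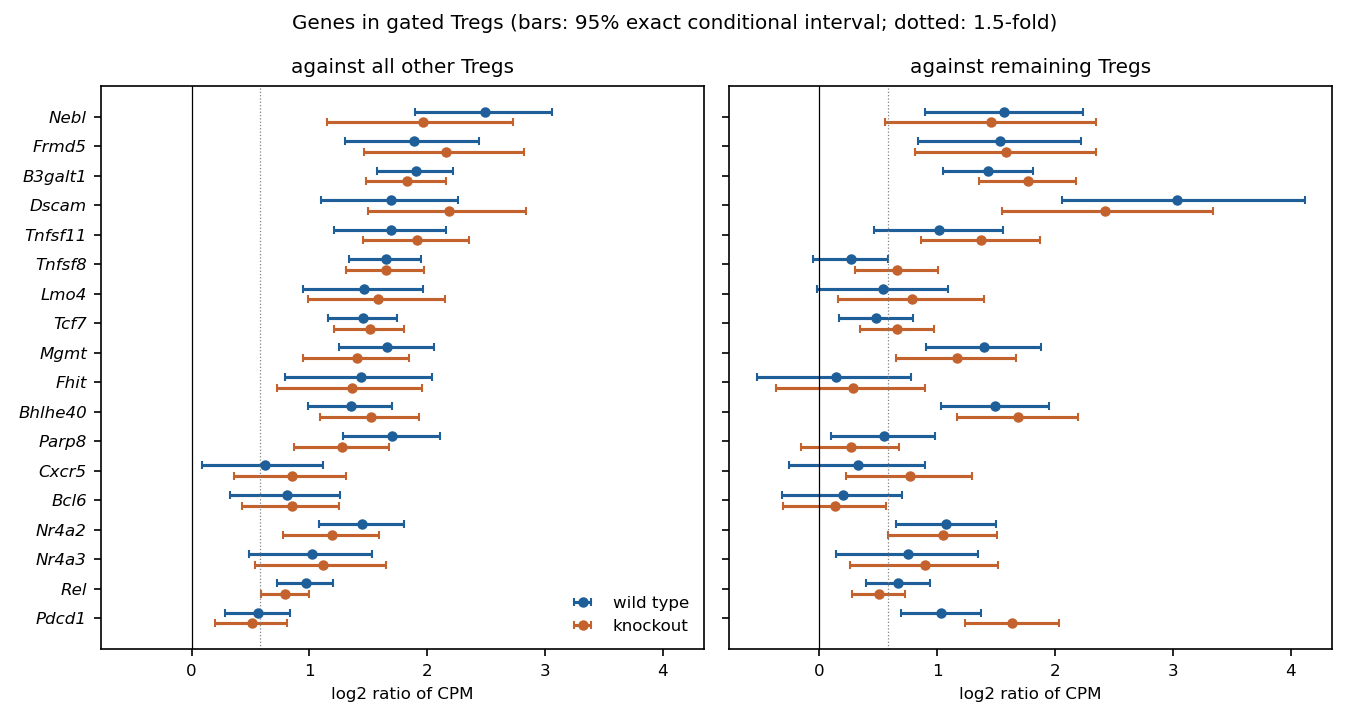
Log2 ratio of CPM in gated Tregs (horizontal axes) to all other Tregs (left) and to the remaining Tregs (right) for the 12 leading genes and 6 genes of the Tfh/Tfr and TCR lists (vertical axis), wild type in blue and knockout in orange, with 95% exact conditional intervals as bars and a dotted line at 1.5-fold. *Nebl*, *Frmd5*, *B3galt1*, *Dscam*, *Mgmt*, *Bhlhe40* and *Nr4a2* lie past the line in both panels, whereas *Tcf7*, *Fhit*, *Cxcr5* and *Bcl6* move towards 0 on the right.

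The follicular part of the label was borne out in part only. Of 18 Tfh/Tfr genes tested, 6 were higher in the gate than in the other Tregs and 4 were lower, with list medians of 0.39 (wild type) and 0.49 (knockout) against −0.09 and −0.05 over all genes tested. *Cxcr5* was at 46.1 CPM (32.6 to 63.3) and 57.5 CPM (42.1 to 76.7) in gated cells against 30 and 31.9 CPM outside. *Bcl6* was at 57.05 CPM (41.9 to 75.9) and 75 CPM (57.2 to 96.5) against 32.6 and 41.6 CPM. *Id3*, for an inhibitor of E proteins, was at 97.1 and 124 against 39.6 and 54.6 CPM, and *Sh2d1a* (the adaptor SAP) and the inhibitory receptor gene *Btla* were called higher too. The receptor gene *Icos* went the other way, at 158 and 181 against 369 and 393 CPM, as did the transcription factor gene *Maf* (178 and 300.02 against 426 and 483 CPM), *Angptl2* and *Asb2*. *Icos* and *Maf* are also high in suppressive Tregs (455 and 578 CPM in the wild type). Against the remaining Tregs, 3 of 17 tested members were higher, *Pdcd1*, *Cd200* and *Angptl2*, and 1, *Cd84*, was lower. Neither *Cxcr5* nor *Bcl6* was called against them, with log2 ratios for *Cxcr5* of 0.33 (−0.26 to 0.90) and 0.77 (0.22 to 1.29), and for *Bcl6* of 0.20 (−0.32 to 0.70) and 0.13 (−0.31 to 0.56). *Pdcd1*, which encodes PD-1, was at 155 and 129 CPM in the gate, 137 and 127 CPM in suppressive Tregs and 75.98 and 41.5 CPM in remaining ones. Of the 4 genes outside the rule that the study ties to this state by clusters of its other libraries, *Bhlhe40* and *Tcf7* were called higher. *Rgs10* (552 and 604 against 459 and 410.1 CPM) and *Nt5e* were not. *Il21*, for the main helper cytokine of Tfh cells, was under 20 CPM and was not compared. Since follicular genes, and likewise the activation genes described next, went with the label only in part, the cells are called gated Tregs here.

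**Figure D3:**
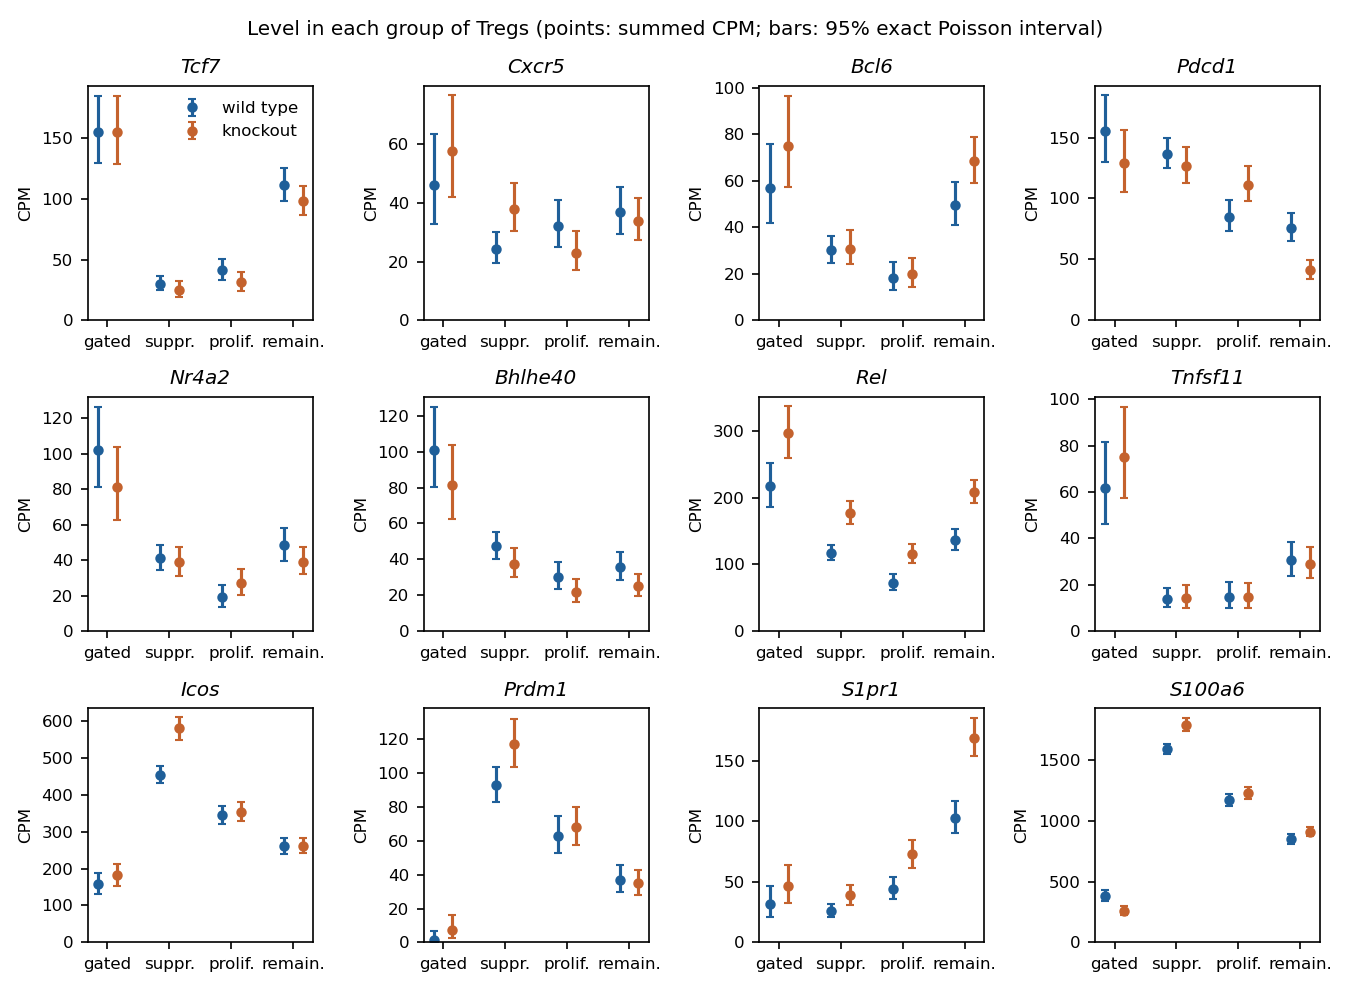
Level of 12 genes (vertical axes, CPM) in gated, suppressive, proliferating and remaining Tregs (horizontal axes), wild type in blue and knockout in orange, with points for the UMIs summed over cells and bars for 95% exact Poisson intervals. *Tcf7*, *Nr4a2*, *Bhlhe40*, *Rel* and *Tnfsf11* are highest in the gate in both libraries, *Cxcr5* and *Bcl6* overlap the remaining Tregs in at least 1 library, and *Icos*, *Prdm1* and *S100a6* are lowest in the gate.

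The activation list was clearer against the remaining Tregs than against all others. Of 18 TCR-activation genes tested, 6 were higher in the gate and 0 lower (list medians 0.19 and 0.26). Against the remaining Tregs 7 of 18 were higher and 0 lower (0.53 and 0.53, against −0.07 and −0.04 over all genes). *Nr4a2*, an orphan nuclear receptor gene induced by TCR signals, was at 102 CPM (81.3 to 126) and 81.3 CPM (62.7 to 104) against 37.4 and 35.5 CPM in the other Tregs. It was highest in the gate of the 4 groups, with 48.3 and 39.3 CPM in the remaining and 41.2 and 38.8 CPM in the suppressive Tregs. *Nr4a3* was at 47.3 and 43.8 against 23.2 and 20.2 CPM, with 28.2% of its wild-type UMIs in 1 cell. *Spry1*, a brake on ERK signaling, and *Myc* were higher against both references. *Rel*, the NF-κB subunit c-Rel on which Treg development depends, was at 217 CPM (187 to 252) and 296 CPM (259.7 to 336) against 111 and 171 CPM. It was the 1 gene of 16 in the NF-κB and feedback list called higher against all other Tregs, with 0 lower, and was not called against the remaining ones (137 and 209 CPM). The early genes of the AP-1 list did not follow: 0 of 12 were higher and *Klf6* was lower, and against the remaining Tregs *Jun*, *Zfp36* and *Klf6* were lower. *Egr1* was at 29.1 CPM (18.7 to 43.3) and 37.5 CPM (25.3 to 53.5) against 35.4 and 32.2 CPM, and *Nr4a1* at 113 and 52.5 against 99.1 and 69.4 CPM. *Tnfrsf9*, itself a gene of TCR activation, was not called against all other Tregs with a wild-type log2 ratio of 0.35 (0.19 to 0.51), but its ratio was 1.28 (1.07 to 1.49) against the remaining ones, with 516 CPM in the suppressive Tregs.

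Of 11 ligands and receptors of the TNF family, 5 were higher in the gate than in all other Tregs (*Cd40lg*, *Tnfsf8*, *Tnfsf11*, *Lta* and *Fas*) and *Tnfrsf1b* was lower. Against the remaining Tregs 2 of 11 were higher, *Tnfsf11* and *Tnfrsf9*, and 0 lower. *Cd40lg*, the helper signal to B and dendritic cells, was at 35.2 CPM (23.6 to 50.6) and 38.8 CPM (26.3 to 55.01) in the gate, against 10.9 and 17.2 CPM in the other Tregs and 26.3 and 33.1 CPM in the remaining ones. OX40, from *Tnfrsf4*, was abundant in all groups (1129.98 and 1050.1 CPM in the gate against 1339 and 976 CPM) and was not called. Among chemokines and their receptors, the lymphoid homing receptor genes *Cxcr5*, *Ccr7* and *Ccr6* were the 3 higher of 12 tested and 8 were lower. *Ccr7* was at 98.3 and 73.8 CPM in the gate against 49.99 and 40.2 CPM, although not past the limit against the remaining Tregs (77.3 and 67.6 CPM). Against those, 0 of 12 members of this list were higher and 6 were lower.

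The genes lowest in the gate fell into those of the cell cycle and those of effector function. *Ccna2*, *Nusap1*, *Hist1h2ap*, *Prc1*, *Ccnb2* and *Hist1h1b* are cell cycle genes, and had 0 to 3 UMIs each in the gate, from which the rule had left out proliferating cells. Histone genes such as *Hist1h2ap* have near-identical copies, so their counts are uncertain. *Ccr2*, an inflammatory homing receptor, had 0 UMIs in wild-type gated cells against 176 CPM in the other Tregs, at least 48.4-fold lower by a floor of 3 UMIs, and 10 UMIs, or 12.5 CPM against 186 CPM in the knockout. The remaining Tregs, under the same exclusions, still held 103 and 123 CPM of *Ccr2*. *Prdm1*, encoding BLIMP1, had 1 and 6 UMIs in gated cells, 1.21 and 7.50 CPM against 37.1 and 34.9 CPM in the remaining and 92.8 and 117 CPM in the suppressive Tregs. *Gzmb*, for the cytotoxic protease granzyme B, had 3 and 2 UMIs, and the chemokine gene *Ccl4* had 10 and 8 (12.1 and 10 CPM against 308 and 247 CPM). The cell cycle inhibitor gene *Cdkn1a* was at 4.85 and 5 CPM in the gate against 48.1 and 42.9 CPM. Of 15 suppressive Treg genes outside the rule, 9 were lower and 1, *Nrp1*, was higher (269 and 290.02 against 123 and 149 CPM). Since *Lag3*, *Itgae*, *Il10* and *Cxcr6* excluded cells from the gate, the comparison with the remaining Tregs bears more on this list, and there *Fgl2* and *Prdm1* were lower and *Pdcd1* higher of 13 tested. *Ctla4* was at 950.4 and 954 CPM in the gate, 1458 and 1278 CPM in the remaining and 2063 and 2098 CPM in the suppressive Tregs.

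Of 11 memory-like genes, 7 were lower than in all other Tregs and 6 lower than in the remaining ones, with 0 higher in either. The study drew its markers of this state from clusters of other libraries, onto which the cells used here were then projected. Members of the list were chosen with earlier results of these data known, so its direction is not independent evidence. *S100a6*, a calcium-binding protein gene of effector and memory T cells, was at 386 CPM (345 to 431) and 259 CPM (225 to 297) in the gate, 851 and 910.2 CPM in the remaining Tregs and 1591 and 1795 CPM in the suppressive ones. *Vim* and *S100a4* were lower in the same way, with log2 ratios to the remaining Tregs of −1.03 and −1.32 for *Vim*, and −1.38 and −2.28 for *S100a4*. *Klf2*, the quiescence factor that maintains *S1pr1*, was at 14.6 and 40 CPM against 111 and 142 CPM in the remaining Tregs, and *S1pr1* at 31.6 and 46.3 against 103 and 169 CPM. Of 13 naive and quiescence genes, 6 were lower than in the remaining Tregs (*Txnip*, *S1pr1*, *Klf3*, *Foxp1*, *Klf2* and *Il7r*) and 0 higher, whereas against all other Tregs *Bach2* and *Ccr7* were higher and *S1pr1* and *Klf2* lower. Interferon genes were lower as well, 4 of 11 (*Gbp2*, *Isg20*, *Ly6a* and *Rtp4*) against all other Tregs (list medians −0.47 and −1.01) and 7 of 12 against the remaining ones (−0.79 and −0.98), with 0 higher. Of the 15 cytokine and cytokine receptor genes, 4 (*Ifngr1*, *Il10ra*, *Cish* and *Socs3*) were lower than in all other Tregs and 0 were higher.

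None of 17 MYC-linked, 12 glycolysis, 20 ribosomal protein or 11 RNA quality and stress genes was called against all other Tregs. Their list medians (wild type and knockout) were 0.13 and 0.49 for MYC-linked, −0.16 and 0.00 for glycolysis, 0.39 and 0.32 for ribosomal protein and 0.27 and 0.12 for RNA quality genes. Against the remaining Tregs, 5 MYC-linked genes (*Hspd1*, *Nop58*, *Fbl*, *Nme1* and *Odc1*), 2 glycolysis genes (*Tpi1* and *Pgam1*) and 1 ribosomal protein gene (*Rps2*) were higher, with list medians of 0.53 and 0.71, 0.19 and 0.24, and 0.34 and 0.30. The heat shock genes *Dnajb1* and *Hspa1a* were lower, *Hspa1a* at 33.98 and 43.8 CPM against 130.4 and 89.3 CPM. Survival genes gave *Bcl2* higher and *Cflar* and *Bcl2l11* lower of 13. Of 14 Treg identity genes, *Bach2* was higher and *Capg* and *Socs2* lower. *Areg*, for the repair factor amphiregulin, was the 1 of 7 tissue-repair genes called, and was lower. Of 8 anergy and ubiquitin ligase genes *Nrp1* was the 1 called, and of 7 inhibitory receptor genes *Btla* and *Cd96* were higher and *Ctla4* and *Tigit* lower.

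The gate joined cells of 2 kinds by the genes through which they passed it. In 69 wild-type and 46 knockout cells *Xcl1*, *Cd83* and *Nrn1* reached 3 UMIs without counting *Tbc1d4* (activation-led), and in 59 and 70 cells *Tbc1d4* was needed (Tbc1d4-led). Tbc1d4-led cells were 46.1% of the wild-type gate and 60.3% of the knockout gate, a difference of 14.3 points (Newcombe interval 1.72 to 26.2). The kinds are set by the gate's own genes, so this difference describes how cells passed the gate. It is not read as a genotype difference. *Tbc1d4* itself was at 341 CPM in wild-type and 524 CPM in knockout gated cells, and at 58.7 and 77.1 CPM in the remaining Tregs. *Nrn1* was at 171 and 91.3 CPM in the gate, and *Cd83* at 312 and 276 CPM. The 2 kinds differed in few genes, 23 of 5942 higher (0.387%) and 7 lower (0.118%) in activation-led cells in both libraries. Those higher included *Rel*, the NF-κB inhibitor gene *Nfkbia*, the calcium-driven factor gene *Nfatc1*, *Tnfrsf4*, the decoy receptor gene *Il1r2* and the migration receptor gene *Gpr183*. *Nfkbia* was at 906 and 975 CPM in activation-led and 472 and 539 CPM in Tbc1d4-led cells, log2 ratios of 0.94 (0.68 to 1.20) and 0.85 (0.61 to 1.10). *Rel* was at 297 and 403 against 127 and 214 CPM. *S1pr1* and the cytokine feedback gene *Socs3* were lower in activation-led cells. For *Tcf7* the wild-type ratio was −0.73 (−1.27 to −0.21) and the knockout one −0.23 (−0.78 to 0.30), and for *Cxcr5* −1.13 (−2.22 to −0.11) and 0.38 (−0.52 to 1.28), so neither gene was called, and *Cxcr5* had opposite signs in the 2 libraries.

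**Figure D4:**
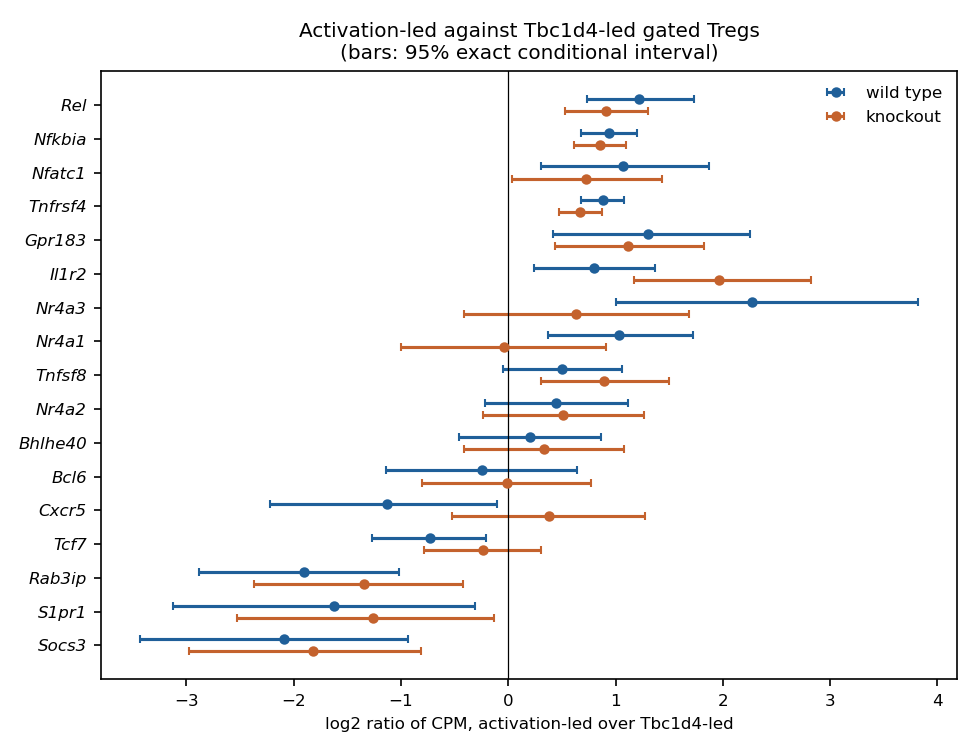
Log2 ratio of CPM in activation-led over Tbc1d4-led gated Tregs (horizontal axis) for 17 genes (vertical axis), wild type in blue and knockout in orange, with 95% exact conditional intervals as bars. *Rel*, *Nfkbia* and *Tnfrsf4* lie above 0 and *Rab3ip*, *S1pr1* and *Socs3* below 0 in both libraries, and *Bcl6* lies near 0.

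Knockout and wild-type gated cells were then compared gene by gene. Of 5933 genes, 401 (6.76%) were higher and 138 (2.33%) lower in the knockout, with a median log2 ratio of 0.09 over all genes. This split depended on the scaling: with edgeR's TMM factors 239 were higher and 237 lower, and the median was −0.02, a shift of −0.11 for every gene. The 239 were all among the 401, and all 138 lower genes kept their call. In both scalings long genes stood higher in the knockout than short ones, with a median of 0.26 over 868 genes spanning more than 100 kb and −0.04 over 1356 genes under 10 kb (0.23 and −0.09 in the other Tregs). Directions below held with TMM factors unless stated.

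The gate's own genes chose the cells, so their levels inside the gate, given above, are not read as a genotype difference. In the other Tregs *Nrn1* was at 27.9 CPM in the wild type and 28.1 CPM in the knockout, and *Tbc1d4* at 61.9 and 91.8 CPM. Among genes outside the rule, 6 picked from the 111 higher in the gate had ratios within counting error between genotypes. How many of the 111 did so was not counted. Over all 5933 genes, 6.76% were called higher and 2.33% lower, so most genes were not called either. *Tcf7* was at 155 and 155 CPM, a log2 ratio of 0.00 (−0.37 to 0.36). For *Cxcr5* the ratio was 0.32 (−0.33 to 0.98), for *Bcl6* 0.39 (−0.18 to 0.98), for *Nr4a2* −0.33 (−0.82 to 0.16), for *Bhlhe40* −0.31 (−0.80 to 0.18) and for *Tnfsf11* 0.28 (−0.29 to 0.84). These intervals still allow differences as large as their outer bounds. For *Tnfrsf9* the gated ratio of −1.47 and the ratio in the other Tregs, −1.64 (−1.76 to −1.53), were 0.17 (−0.15 to 0.49) apart, which is within counting error.

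The 12 genes lower in the knockout whose intervals lay farthest from 0 were *Ly6a*, *Ccl5*, *Tnfrsf9*, *Cxcl10*, *Ebi3*, *Thap11*, *Carkd*, *Ntng2*, *Scly*, *Myo3b*, *Nr4a1* and *Nudt16l1*. *Ly6a*, which encodes the interferon-inducible surface protein Sca-1, was at 1355 CPM (1276 to 1436) in wild-type gated cells, where 95 of 128 had a UMI, and 331 CPM (293 to 374) in knockout ones, where 55 of 116 did. Its log2 ratio was −2.03 (−2.23 to −1.84) in the gate and −1.09 (−1.13 to −1.05) in the other Tregs, a difference of −0.94 (−1.14 to −0.74). *Ccl5*, a chemokine of memory and effector T cells, was at 212 CPM (182 to 246) and 61.3 CPM (45.3 to 80.98), a ratio of −1.79 against −1.01 in the other Tregs. *Ebi3*, the β chain of the inhibitory cytokine IL-35, had 33 UMIs in 22 wild-type and 8 in 5 knockout cells, while its ratio in the other Tregs was −0.01 (−0.56 to 0.54). The interferon-induced chemokine gene *Cxcl10* had 35 and 8 UMIs, with 40% of the wild-type ones in 1 cell. *Nr4a1*, a widely used reporter of TCR signals, was at 113 CPM (91.1 to 138) and 52.5 CPM (37.8 to 70.97), a ratio of −1.10 (−1.67 to −0.56) against −0.51 (−0.68 to −0.35) in the other Tregs. In activation-led cells its ratio was −1.52 (−2.36 to −0.75) and in Tbc1d4-led ones −0.45 (−1.30 to 0.39), whereas *Nr4a2* and *Nr4a3* were not called. Interferon genes were lower together, 5 of 11 (*Zbp1*, *Isg15*, *Irf7*, *Ifi27l2a* and *Ly6a*) and 0 higher, with a list median of −0.60. In the other Tregs the median over the same genes was −0.35. With TMM factors *Rtp4* was lower too. *Isg15* was at 52.2 and 25 CPM and *Irf7* at 31.6 and 11.3 CPM.

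The 12 genes higher in the knockout by the same order were *Prpf4b*, *Ryr2*, *Cd2ap*, *Lyst*, *Vcp*, *Rint1*, *Ptcd3*, *Samd9l*, *Gmds*, *Prrc2c*, *Atg4a* and *Ncl*. *Prpf4b*, a kinase gene of the spliceosome, was at 60.7 CPM (45.04 to 80.01) and 173 CPM (145 to 204), a ratio of 1.51 against 1.03 in the other Tregs. *Ncl*, for the nucleolar protein nucleolin, was at 484 CPM (438 to 534) and 853 CPM (789.8 to 919), a ratio of 0.82 (0.64 to 1.00) in the gate and 0.38 (0.31 to 0.44) in the other Tregs. It belonged to the MYC-linked list, in which 5 of 18 genes were higher (*Hspd1*, *Nop58*, *Ncl*, *Nop56* and *Nolc1*) and 0 lower, with a median of 0.42 (0.05 in the other Tregs), and 4 of these (not *Nop56*) with TMM factors. *Vcp*, an ATPase of protein quality control, was at 61.9 and 146 CPM. The other genes of the 12 rested on fewer UMIs, from 7 in wild-type cells for *Ptcd3* and *Lyst*, apart from *Prrc2c* with 182 and 339. In all 12 the ratio in the other Tregs was also above 0, from 0.38 for *Ncl* to 1.23 for *Samd9l*. The interval for the difference between gated and other Tregs was off 0 for 6 of the 12 higher genes and 11 of the 12 lower ones, all with the larger change in the gate, for which they had been chosen.

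**Figure D5:**
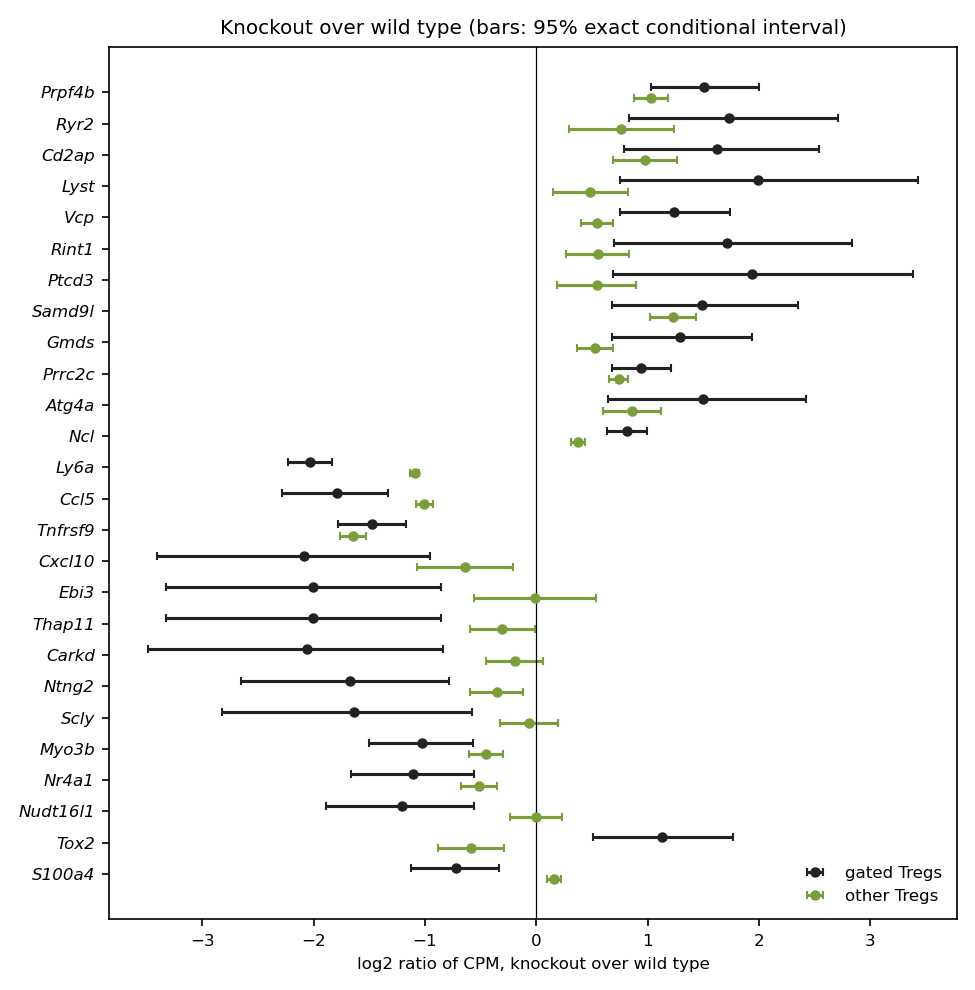
Log2 ratio of CPM in knockout over wild-type cells (horizontal axis) in gated Tregs (black) and in the other Tregs (green) for 12 genes higher, 12 lower, *Tox2* and *S100a4* (vertical axis), with 95% exact conditional intervals as bars. *Ly6a* and *Ccl5* lie further below 0 in the gate than outside, *Tnfrsf9* lies at similar values in both, and *Tox2* and *S100a4* lie on opposite sides of 0.

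Among the lists, Tfh/Tfr genes gave 2 higher (*Tox2* and *Maf*) and 1 lower (*Angptl2*) of 17. *Tox2*, a factor that promotes Tfh development, was at 40.1 CPM (27.6 to 56.2) in wild-type and 87.5 CPM (68.2 to 111) in knockout gated cells, found in 25 and 33 of them. In the other Tregs it was at 31.9 and 21.2 CPM. *Maf* was at 178 and 300.02 CPM. The TCR-activation list gave *Orai1* and *Nr4a1* lower and 0 higher of 18, joined by *Irf8* with TMM factors. Naive and memory-like genes gave *Klf2* higher (14.6 and 40 CPM) and *S100a4* and *S100a11* lower, joined by *S100a6* with TMM factors. Of 10 chemokine and receptor genes *Cxcr3*, *Cxcl10* and *Ccl5* were lower, and of 11 TNF family genes *Lta* was higher and *Tnfrsf9* lower. *Foxo1* and *Gpr83* were the 2 of 14 Treg identity genes called, both higher, and *Foxo1* lost its call with TMM factors. NF-κB and feedback genes gave *Tnfaip3* higher and *Nfkb2* lower of 16, and *Tnfaip3* lost its call with TMM factors. The AP-1, glycolysis, inhibitory receptor and RNA quality lists gave 0 calls. One call each came from suppressive Treg (*Ebi3*), survival (*Bid*) and ribosomal protein (*Rplp0*) genes, 2 from the tissue-repair genes (*Il18r1* and *Penk*, both lower), and 1 higher and 1 lower from the anergy (*Cblb* and *Dgkz*) and cytokine (*Ifngr1* and *Il18r1*) lists. *Cblb* and *Ifngr1* lost their calls with TMM factors.

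Since Tbc1d4-led cells were a larger part of the knockout gate, the genotypes were also compared within each kind. All 24 named genes kept their sign in both kinds, and 8 of the 12 higher and 8 of the 12 lower had intervals off 0 in both, although the sums over both kinds had chosen them. *Ly6a* was −1.82 (−2.08 to −1.56) in activation-led and −2.20 (−2.50 to −1.90) in Tbc1d4-led cells, and *Ccl5* −1.07 (−1.83 to −0.36) and −2.36 (−3.04 to −1.74). *Tox2* was 1.60 (0.69 to 2.57) and 0.69 (−0.18 to 1.60). For *Tcf7*, which had been at the same level over both kinds, the ratios were 0.25 (−0.34 to 0.84) and −0.25 (−0.73 to 0.23), both within counting error.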

How the data were processed

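The authors made 1 library per genotype with the Chromium 3′ kit, version 2, and deposited counts, the UMIs per gene and called barcode, without normalization or filtering. The submitters' processing notes name Cell Ranger 7.0.0 and mm10. Barcodes with 200 to 5000 genes and no more than 20% mitochondrial UMIs were retained (2714 of 2804 in the wild type, 2915 of 2991 in the knockout, from totals of 19904506 and 19639995 UMIs). UMIs were summed per library and group and scaled to CPM. At 95%, exact Poisson intervals were used for levels, Clopper-Pearson for shares, Newcombe for their differences, exact conditional for log2 ratios and a normal approximation for the difference of log2 ratios. In ratios, 0 counts were set to 0.5. No test was made with 1 library per genotype.

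Genes with a mean of at least 20 CPM were compared, without the 22 genes of the rule. The 12 higher and 12 lower genes were named by the smaller ratio of the libraries, or between genotypes by the interval bound nearest 0, largest first, leaving out receptor segment and unnamed genes. One of them is not reported here. Members and lists were chosen with earlier results of these data known. GENCODE vM21 gave gene positions (27645 of 27998 identifiers matched) and RefSeq, GRCm38.p6, the promoters. Interval code was tested on simulated Poisson counts, which hold no added spread between cells. Python 3.11.15, numpy 2.4.6, scipy 1.17.1, pandas 2.3.3, matplotlib 3.10.9, R 4.3.3 and edgeR 4.0.16 (TMM only) were used. The alternatives changed the gate, the cells, the scaling and the reference.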

Additional observations from a re-analysis of the deposited data

Results flagged for a closer look

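Of the 251 listed or named genes that could be compared, 4 had a knockout ratio beyond counting error in both gated and other Tregs but in opposite directions. With 1 library per genotype, the difference was not tested across mice. *Tox2* was higher in knockout than in wild-type gated cells, with a log2 ratio of 1.13 (0.51 to 1.77), and lower in the other Tregs, −0.59 (−0.89 to −0.29), which is 1.72 (1.05 to 2.38) apart. Its level was 40.1 CPM in wild-type and 87.5 CPM in knockout gated cells, and 31.9 and 21.2 CPM outside the gate. *S100a4* was −0.72 (−1.12 to −0.33) in the gate and 0.16 (0.10 to 0.22) outside, and *Crip1*, a small LIM protein gene, −0.33 (−0.52 to −0.14) and 0.18 (0.14 to 0.22). *Eif5a*, a translation factor gene, was 0.16 (0.00 to 0.32) in the gate and −0.09 (−0.15 to −0.04) outside, and its gated ratio with TMM factors was 0.05 (−0.11 to 0.21), within counting error. The other 3 kept their gated direction with TMM factors, at 1.02 for *Tox2*, −0.83 for *S100a4* and −0.44 for *Crip1*. Over all 5933 genes, 28 differed in direction in this way. In the 2 kinds of gated cell *S100a4* was −1.09 (−1.69 to −0.52) in activation-led and −0.29 (−0.86 to 0.29) in Tbc1d4-led cells.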

How the results depend on the processing

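No paired analysis was possible because each genotype has 1 library, and for the same reason no replicate could be left out. The difference in gated share lay within the interval given above in each alternative run on it, from −1.27 points with *Tbc1d4* out of the gate to 1.22 points with a *Foxp3* UMI required. That interval was made for the main gate of 128 and 116 cells. Without *Tbc1d4* the gate held 69 and 46 cells, so the same number of points is a larger part of the share. Lying within the interval does not show that the share was unmoved there. Counts of genes (111 higher and 309 lower in the gate, 401 higher and 138 lower in the knockout) moved by over 1.5 times as follows. Thinning cells to 2000 UMIs before the rule left 52 and 47 gated cells and gave 40, 62, 166 and 83. Requiring a *Foxp3* UMI left 12 and 20 gated cells and gave 49, 91 and 105, with 153 lower in the knockout, so that 40.7% of its calls were higher in place of 74.4%. A minimum of 50 CPM gave 57, 178, 234 and 60. Keeping cells of middle depth only gave 188 lower in the gate. With equal weight for each cell, genes were called by fold alone, without an interval. That gave 748 and 386 in the knockout comparison. TMM factors gave 239 and 237 there (50.2% higher). The median of the Tfh/Tfr list, 0.442 over both libraries, was 0.327 with 2 gate UMIs, 0.526 when thinned and 0.554 without *Tbc1d4*. That of the TCR-activation list, 0.228, was 0.0599 with 2 gate UMIs, 0.338 when thinned, 0.116 with *Foxp3* required, 0.436 without *Tbc1d4*, 0.342 with equal weight, 0.532 against the remaining Tregs and 0.286 without cells above 3 times the median depth, the last 2 chosen after seeing the data. Beyond the fewer cells or genes that an alternative leaves, and the call by fold alone, the cause of these moves was not tested. Of 352 values for the 24 genes named between gate and other Tregs, 320 kept direction and call, 29 kept direction only and 3 reversed: *Lmo4* to −0.21 when thinned, and *Hist1h2ap* to 0.15 and *Ccnb2* to 0.44 when suppressive and proliferating cells were let in. Of 359 for the 24 named between genotypes these were 320, 35 and 4: *Vcp* to −0.077 when thinned, and *Samd9l* to −0.070, *Atg4a* to −0.24 and *Nr4a1* to 0.93 with *Foxp3* required. Over both comparisons, thinning alone gave 15 values with direction and call kept, 25 with direction only and 2 reversed. Most calls were thus lost at equal depth and with fewer gated cells. Requiring a *Foxp3* UMI gave 22, 18 and 3. The minimums of 5 and 50 CPM could change no ratio or call, and put 48 and 19 values among those kept. Leaving out the 3 gated cells with a shared barcode, or those with markers of other cell types, moved no count or list median beyond these limits. Depth limits what the gate can show for genes under 20 CPM.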
